A study of Homo sapiens with 6 samples.

Results

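The hypoxia-inducible factor (HIF) pathway was followed through 10 genes in 22Rv1, an established human prostate carcinoma cell line. They were chosen by name for their place in the pathway, as the factor subunits HIF1A, EPAS1 and ARNT, the oxygen-sensing prolyl hydroxylases EGLN1, EGLN2 and EGLN3, the ubiquitin ligase subunit VHL, and the targets CA9, VEGFA and BNIP3. They are 10 of the 35322 gene symbols counted, and 9 of them were among the 16510 genes that passed a filter on low counts, while CA9 did not. RNA was sequenced from 3 groups with 2 libraries each, namely control cells labelled WT, a first stable ZMYND11 knockdown (ZMYND11 kd1, here kd1) and a second (ZMYND11 kd2, here kd2). ZMYND11 is a chromatin reader of trimethylated lysine 36 on histone H3.3. All 3 groups were grown in RPMI1640 medium with serum, and the labels name no treatment and no low-oxygen culture. The knockdown lines were made with lentiviral shRNAs and puromycin selection. The shRNA that each carried is not given in the sources used here, and the paper speaks of control shRNAs where the labels say WT, so it is not known here if the controls carried a vector. Nothing says that libraries of a group came from separate cultures, so p-values measure only the spread between these libraries, which may be technical.

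HIF is a dimer of an oxygen-labile alpha subunit, HIF-1alpha from HIF1A or HIF-2alpha from EPAS1, and the stable beta subunit from ARNT. When oxygen is present, the EGLN enzymes hydroxylate prolines of the alpha subunit, which VHL then recognises, so that the protein is ubiquitinated and degraded. When oxygen is low the alpha subunit persists and the dimer activates genes for angiogenesis, glycolysis, pH control and mitophagy, in tumours of the prostate among many others. Most of this control acts on protein, while the present data measure RNA only.

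The HIF dimer is known to bind the core letters ACGTG or GCGTG, and the promoters of the 10 genes were searched for them on both strands. The windows printed here show the promoters of the set that hold such letters. RefSeq promoters (GRCh38.p14) were found for 8 of the 10 genes, while the promoter set used here held no entry for VEGFA and VHL. Within 250 bases before the start, EPAS1, EGLN1 and CA9 each held 1 match and BNIP3 held 6, while HIF1A, ARNT, EGLN2 and EGLN3 held 0. Of all 35116 promoters searched, 43.2% held at least 1 match, so a match is common and only describes the sequence. Each window below is read 5′ to 3′ on the strand of its gene, with the letters of 1 match in capitals. A match on the opposite strand appears as its reverse complement, and the matches of BNIP3 overlap one another in part, since ACGTG on either strand can share letters.
EPAS1, plus strand, chr2:46297280-46297304: gcctgccggcGCGTGcccgcccaca
EGLN1, minus strand, chr1:231422288-231422312: gggccgtggtgtACGTGcagagcgc
CA9, plus strand, chr9:35673900-35673924, match on the opposite strand: gtttccaatgCACGTacagcccgta
BNIP3, minus strand, chr10:131982042-131982066: cacgcgccgcACGTGccacacgcac
The BNIP3 window holds its only ACGTG match on the gene's own strand, 133 bases before the start, and the EGLN1 match lay 13 bases before its start. These members did not move alike, as the values of BNIP3 and EGLN1 show in later paragraphs. No binding of a factor was measured here.

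The libraries held 26844128 to 38193748 counts each, and levels are given as CPM, counts scaled to the TMM-normalized size of the library. ZMYND11 itself had 4283 and 4179 counts in control cells, 941 and 773 in kd1, and 770 and 779 in kd2, so every knockdown library lay below both controls. All 10 prostate luminal markers were detected in every library, with a summed level of 2851 to 2875 CPM in control cells, 3707 to 3736 in kd1 and 4090 to 4106 in kd2. Of 7 endothelial markers 0 passed the filter, with a summed level of 0.296 to 0.676 CPM per library and KDR at 0 counts throughout. Of 6 leukocyte markers 3 passed, with 0.438 to 1.71 CPM summed and CD3E at 0 throughout. The 6 stromal markers summed to 33.5 to 36.4 CPM in control cells, 88.1 to 88.4 in kd1 and 50.5 to 51.1 in kd2, and all 6 were tested. Most of that sum was COL1A1, at 23.8 and 23.9 CPM in control cells, 74.2 and 74.8 in kd1, and 30.1 and 32.4 in kd2. The stromal markers did not move as a set. In kd1 2 of the 6 were called, both higher, and in kd2 4 were higher while DCN was lower (log2 -1.91). Of all genes, 78.0% were called in kd1 and 73.4% in kd2. COL1A2, 1 of the 2 called in kd1, lay near the floor, with a mean of 0.049 CPM in control cells and 0.643 in kd1. The part of the stromal markers in the results was not tested.

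Changes were tested with edgeR's quasi-likelihood test on TMM-normalized counts, with p-values adjusted over all genes tested, and a gene was called when its adjusted p was under 0.05. The 2 libraries of a group differed most in kd2. The chi-square per gene between them was 2.33 in control cells, 3.83 in kd1 and 10.1 in kd2. All groups shared 1 fit and its estimate of the spread, so standard errors and p-values for kd2 may be too small. In kd1 all 9 tested members were called, 4 higher and 5 lower, against 78.0% of all genes, of which 38.2% of all genes were higher and 39.8% lower. In kd2 8 members were called, 5 higher and 3 lower, against 73.4% of all genes, with 36.5% higher and 36.9% lower. Between the knockdowns 6 members were called, all of them higher in kd2, against 68.8% of all genes, with 34.9% higher and 33.8% lower. A call by itself was therefore common in these data, and the size and direction of each gene carry more. In bulk RNA, fewer cells of a type and less RNA per cell cannot be told apart. The median log2 fold change of the members was -0.26 in kd1 and 0.38 in kd2, beside -0.03 for all genes in each, and 0.84 between the knockdowns, beside 0.02. With library totals alone the members' median was -0.61 in kd1 and 0.21 in kd2, and after the GC and length correction it was -0.12 in kd1. After the GC and length correction 6 members were higher and 2 lower between the knockdowns, with a median of 0.45, and without kd1 replicate 1 they were 6 and 1. Both knockdowns were compared with the same control libraries, so their changes are set side by side here and not counted as independent of each other.

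**Figure D1:**
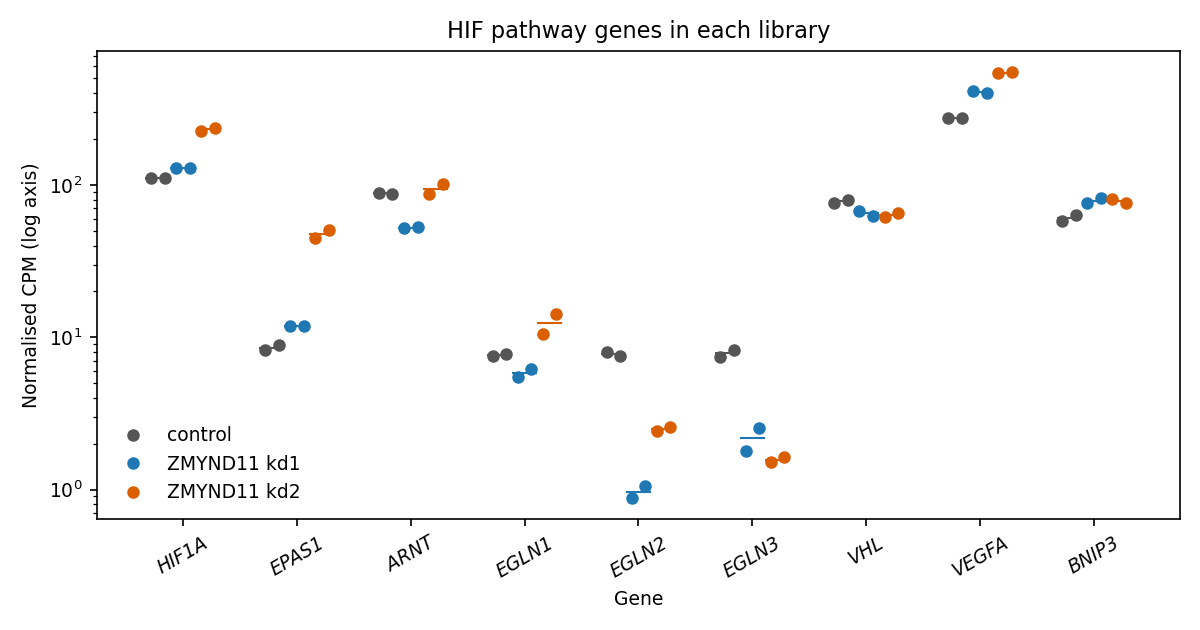
Normalized CPM (log axis) of the 9 tested HIF pathway genes in each of the 6 libraries, with a point per library and a line at each group mean. EPAS1 separates kd2, at 45.1 and 50.2, from the other 4 libraries at 8.18 to 11.9, and EGLN2 and EGLN3 lie lower in all 4 knockdown libraries than in the controls.

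The alpha subunit genes EPAS1 and HIF1A were higher in kd2 than in control cells and than in kd1. In kd1 they were higher by less with TMM, and library totals alone ended the call of EPAS1 and turned HIF1A. EPAS1, which encodes HIF-2alpha and lies on chromosome 2 at 46293667 to 46386697 (GRCh38, plus strand), had 8.18 and 8.92 CPM in control cells, 11.9 and 11.9 in kd1, and 45.1 and 50.2 in kd2. The 3 groups did not overlap. EPAS1 was 5.57-fold higher in kd2 than in control (log2 fold change 2.48, standard error 0.09, adjusted p = 1.70e-11), and 1.39-fold higher in kd1 (log2 0.48, standard error 0.10, adjusted p = 0.000785). Its rise in kd1 depended on the scaling, since with library totals alone it was 0.12 with an adjusted p of 0.321. The difference between the knockdowns was a log2 fold change of 2.003 (95% interval 1.81 to 2.20, adjusted p = 1.59e-10).

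HIF1A, which encodes HIF-1alpha and lies on chromosome 14 at 61695513 to 61748259 (plus strand), had 110.7 CPM in both control libraries, 129.9 and 129.4 in kd1, and 227.5 and 237.2 in kd2. It was 2.10-fold higher in kd2 (log2 1.07, standard error 0.05, adjusted p = 1.87e-10). In kd1 HIF1A was 1.17-fold higher with TMM (log2 0.23, standard error 0.05, adjusted p = 0.00112), but with library totals alone its direction turned, to -0.13 with an adjusted p of 0.0423. Under that scaling the median of all genes was itself at -0.38 in kd1, so HIF1A stayed above it. After correction for GC and length the kd1 value was 0.49 instead. The difference between the knockdowns was 0.84 (95% interval 0.73 to 0.95, adjusted p = 2.98e-09), and the same correction brought it to 0.45, outside that interval (adjusted p = 2.78e-07). The antisense genes HIF1A-AS1 and HIF1A-AS3 had at most 7 counts in any library.

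ARNT, the shared beta subunit on chromosome 1 at 150809713 to 150876708 (minus strand), was called lower in kd1 and was not called in kd2. Its level was 88.8 and 87.4 CPM in control cells, 52.2 and 52.8 in kd1, and 86.5 and 101.5 in kd2. The kd1 libraries lay below all others, while those of kd2 spanned the control values. ARNT was 1.68-fold lower in kd1 (log2 -0.75, standard error 0.07, adjusted p = 2.38e-07), with -0.41 after the GC and length correction and -1.10 with library totals alone, called in both cases. In kd2 the log2 fold change was 0.09 with a 95% interval of -0.06 to 0.24 and an adjusted p of 0.240, and it passed the threshold at 0.20 without kd2 replicate 1 (adjusted p = 0.00189) and at 0.21 once corrected for gene length and GC content (adjusted p = 0.00427). The knockdowns differed by 0.84 (95% interval 0.69 to 0.99, adjusted p = 1.06e-07).

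Within a library the ratio of HIF1A to EPAS1 does not depend on a size factor of that library, whereas a correction by GC content and length, which acts gene by gene, does move it and was not applied here. Per kilobase of annotated exon, HIF1A stood 19.2 and 17.6 times above EPAS1 in control cells, 15.5 and 15.4 times in kd1, and 7.14 and 6.68 times in kd2. The mean ratio was 18.4 ± 1.13 (SD, n = 2), 15.4 ± 0.0981 (SD, n = 2) and 6.91 ± 0.321 (SD, n = 2) in that order. The 3 groups did not overlap, and HIF1A remained the more abundant alpha subunit transcript in every library. With 2 libraries against 2 no permutation test can reach 0.05, so these ratios are given as a description.

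The prolyl hydroxylase genes EGLN2 and EGLN3 fell more than any other member, in both knockdowns, while EGLN1 was higher in kd2. EGLN2, on chromosome 19 at 40798996 to 40808434 (plus strand), encodes PHD1. It had 242 and 235 counts in control cells, 30 and 31 in kd1, and 86 and 88 in kd2. Normalized, this was 7.76 ± 0.273 CPM (SD, n = 2), 0.965 ± 0.116 (SD, n = 2) and 2.49 ± 0.114 (SD, n = 2), with no overlap between groups. EGLN2 fell 8.05-fold in kd1 (log2 -3.01, standard error 0.21, adjusted p = 4.46e-09) and 3.12-fold in kd2 (log2 -1.64, standard error 0.17, adjusted p = 8.73e-07). It was higher in kd2 than in kd1 by 1.37 (95% interval 0.88 to 1.86, adjusted p = 9.73e-05). Of its exon bases, 30.6% are shared on the same strand with the read-through gene RAB4B-EGLN2 or another gene. Neither was found by name among the gene symbols counted, and how reads there were counted is not given in the sources used here.

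EGLN3, on chromosome 14 at 33924227 to 34462774 (minus strand), encodes PHD3 and is itself a well-known HIF target. It had 227 and 257 counts in control cells, 61 and 75 in kd1, and 54 and 56 in kd2. EGLN3 fell 3.66-fold in kd1 (log2 -1.87, standard error 0.20, adjusted p = 5.82e-07) and 4.99-fold in kd2 (log2 -2.32, standard error 0.20, adjusted p = 1.04e-07). All 4 knockdown libraries lay far below both controls. The difference between the knockdowns was -0.45 with a 95% interval of -0.95 to 0.05 and an adjusted p of 0.102. That difference passed the threshold without kd1 replicate 1, at -0.69 (adjusted p = 0.0331), against -0.19 without kd1 replicate 2 (adjusted p = 0.565), and after the GC and length correction, at -0.61 (adjusted p = 0.0300).

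EGLN1, on chromosome 1 at 231363751 to 231422287 (minus strand), encodes PHD2, the main oxygen sensor of the family in most cells. It was the member called in opposite directions, with 7.53 and 7.73 CPM in control cells, 5.50 and 6.18 in kd1, and 10.5 and 14.1 in kd2. The groups did not overlap, but the kd2 libraries stood well apart from each other. EGLN1 was 1.61-fold higher in kd2 (log2 0.69, standard error 0.15, adjusted p = 0.000724). In kd1 it was 1.31-fold lower (log2 -0.39, standard error 0.16, adjusted p = 0.0395), and this call was lost without either control library or either kd1 library, where log2 fold changes of -0.47 to -0.30 had adjusted p-values of 0.0501 to 0.195. It was also lost with the DESeq2 Wald test (-0.38, adjusted p = 0.0775) and with the GC and length correction (-0.19, adjusted p = 0.273), while library totals alone gave -0.74 (adjusted p = 0.000761). The knockdowns differed by 1.08 (95% interval 0.75 to 1.41, adjusted p = 1.88e-05). Of its exon bases, 55.8% are shared on the same strand with another protein-coding gene, which was not found by name among the gene symbols counted.

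**Figure D2:**
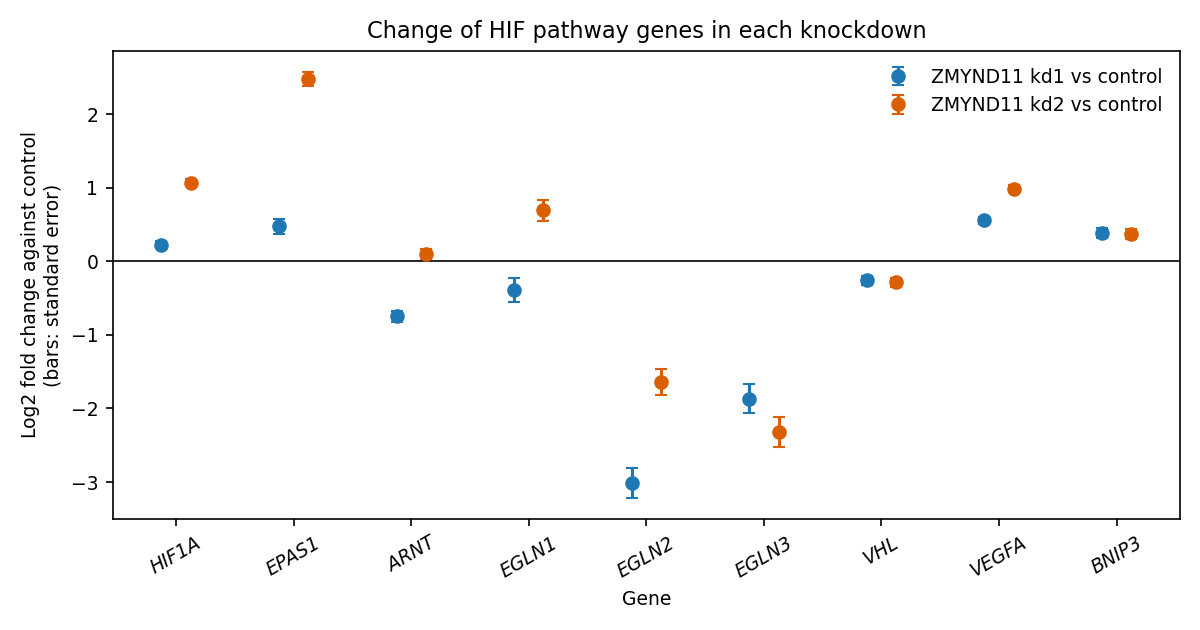
Log2 fold change of the 9 tested HIF pathway genes in each ZMYND11 knockdown against control, with bars for the standard error of the edgeR fit. EGLN2 and EGLN3 lie at -1.64 or lower in both knockdowns, EPAS1 reaches 2.48 in kd2, and HIF1A in kd1, at 0.23 here, turns to -0.13 when library totals alone are used.

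Taken as a family, the 3 hydroxylase transcripts shifted in their makeup. Per kilobase of exon, EGLN1 held 38.6% and 38.7% of the summed EGLN level in control cells, 73.0% and 69.5% in kd1, and 77.4% and 81.1% in kd2. EGLN2 held 33.4% and 31.0% in control cells, 9.59% and 9.64% in kd1, and 14.5% and 12.1% in kd2. For EGLN3 the shares were 28.0% and 30.3%, then 17.4% and 20.8%, then 8.12% and 6.86%. The near-equal shares of the control cells were thus replaced by a majority of EGLN1 in all 4 knockdown libraries. Summed over the family, control cells held 3.67 ± 0.0634 CPM per kb (SD, n = 2), with 1.53 ± 0.177 (SD, n = 2) left in kd1 and 2.88 ± 0.503 (SD, n = 2) in kd2. The shares rest on lengths over all annotated transcripts, isoforms were not resolved, and the exon bases that EGLN1 and EGLN2 share with other genes are included.

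**Figure D3:**
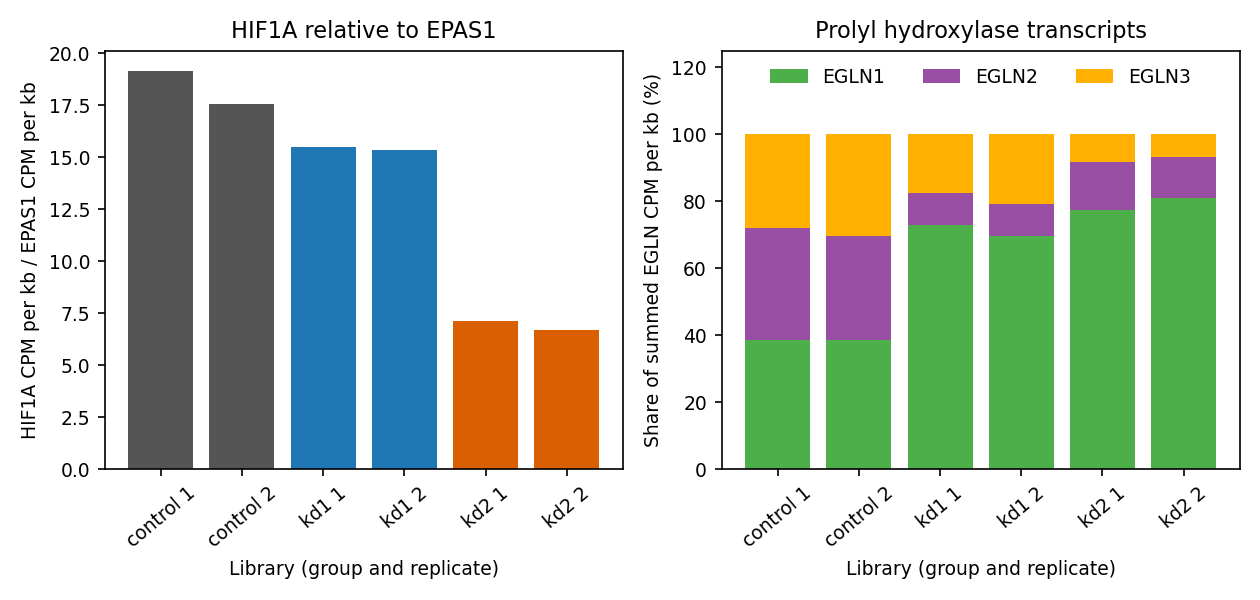
Left, ratio of HIF1A to EPAS1 in each library, both in CPM per kb of exon. Right, percent of the summed CPM per kb of the EGLN genes held by EGLN1, EGLN2 and EGLN3 in each library. The ratio was 17.6 or more in control cells and 7.14 or less in kd2, and EGLN1 held 69.5% or more in each knockdown library.

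VHL, the substrate-recognition subunit of the ligase that marks hydroxylated HIF-alpha, lies on chromosome 3 at 10141778 to 10153667 (plus strand). Its level was 76.5 and 79.3 CPM in control cells, 67.2 and 62.8 in kd1, and 62.0 and 65.8 in kd2. Every knockdown library lay below both controls, by a small amount. VHL was 1.20-fold lower in kd1 (log2 -0.26, standard error 0.06, adjusted p = 0.00162) and 1.22-fold lower in kd2 (log2 -0.29, standard error 0.06, adjusted p = 0.000840). In kd1 the call was lost after the GC and length correction, at -0.12 with an adjusted p of 0.0814, while library totals alone gave -0.61 in kd1 and -0.46 in kd2. Between the knockdowns the log2 fold change was -0.03 with a 95% interval of -0.16 to 0.11, and it was 0.16 with library totals alone (adjusted p = 0.0478) and -0.15 after the GC and length correction (adjusted p = 0.0301). An unnamed lncRNA on the opposite strand shares 23.5% of the VHL exon bases, and strand use in counting is not given in the sources used here.

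Of the target genes, VEGFA was higher in both knockdowns, BNIP3 was higher by less and, in kd1, only where libraries were not scaled by totals alone, and CA9 was close to 0. VEGFA encodes the angiogenic growth factor VEGF-A and lies on chromosome 6 at 43770184 to 43786487 (plus strand). It had 276.7 and 274.4 CPM in control cells, 411.3 and 399.1 in kd1, and 541.1 and 550.7 in kd2, with no overlap between groups. VEGFA was 1.47-fold higher in kd1 (log2 0.56, standard error 0.05, adjusted p = 8.39e-08) and 1.98-fold higher in kd2 (log2 0.99, standard error 0.05, adjusted p = 2.60e-10). Its rise in kd1 was called under every scaling tried, from 0.20 with library totals alone to 0.95 after the GC and length correction. It was higher in kd2 than in kd1 by 0.43 (95% interval 0.33 to 0.53, adjusted p = 2.06e-06).

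BNIP3 encodes a mitochondrial receptor for mitophagy and lies on chromosome 10 at 131967684 to 131981967 (minus strand). It had 57.8 and 63.2 CPM in control cells, 75.6 and 82.2 in kd1, and 81.3 and 75.8 in kd2. Its rise was 1.30-fold in both knockdowns, with a log2 fold change of 0.38 (standard error 0.07) in each and adjusted p-values of 0.000140 and 0.000178. The ranges of the knockdowns overlapped, and the difference between them was -0.01 with a 95% interval of -0.15 to 0.14. With library totals alone that difference became 0.18 and was called (adjusted p = 0.0241), the rise in kd1 was lost, at 0.03 with an adjusted p of 0.717, and the rise in kd2 was 0.21. BNIP3 has 35 pseudogenes in the count table, which together held at most 6.65% of its counts in a library, so reads of near-identical copies may be split between them.

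CA9, the cell-surface carbonic anhydrase often used as a marker of hypoxia, lies on chromosome 9 at 35673928 to 35681159 (plus strand) and was barely detected. It had 5 and 2 counts in control cells, 0 and 1 in kd1, and 0 and 0 in kd2. A count of 0 allows up to 3 counts, or 0.0839 to 0.101 CPM over the libraries, by counting error only. No fold change is given, since nearly every library is at or under that limit, and a difference was not detectable at this depth. On the opposite strand, 35.7% of its exon bases are shared with ARHGEF39, which had 751 and 775 counts in control cells and 55 to 76 in the knockdown libraries. Whether reads of that gene reached the CA9 counts was not tested.

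Ranked per kilobase of exon, the members formed a high and a low set in control cells. HIF1A stood first at 21.5 ± 0.0104 CPM per kb (SD, n = 2), followed by VEGFA at 19.1 ± 0.113 (SD, n = 2), VHL at 15.6 ± 0.406 (SD, n = 2), BNIP3 at 14.9 ± 0.943 (SD, n = 2) and ARNT at 13.7 ± 0.154 (SD, n = 2). VHL and BNIP3 did not differ beyond their spread. The low set held EGLN1 at 1.42 ± 0.0266 (SD, n = 2), EGLN2 at 1.18 ± 0.0415 (SD, n = 2), EPAS1 at 1.17 ± 0.0714 (SD, n = 2) and EGLN3 at 1.07 ± 0.0783 (SD, n = 2), where the libraries of EPAS1 overlapped those of both EGLN2 and EGLN3. In kd2 the order was HIF1A at 45.1, VEGFA at 37.8, BNIP3 at 19.4, ARNT at 14.6, VHL at 12.8, EPAS1 at 6.54, EGLN1 at 2.29, EGLN2 at 0.378 and EGLN3 at 0.214 CPM per kb, with SDs of 0.0118 to 1.64 over 2 libraries. EPAS1 had left the level of the hydroxylases there. In kd1 VEGFA led at 28.1, ahead of HIF1A at 25.2, and EGLN2 closed the tested genes at 0.147 CPM per kb. VEGFA has 26 annotated transcripts spanning 14431 exon bases in all, so its level per kilobase is lowered if only some of them are used. The levels of EGLN1 and EGLN2 are uncertain too, since 55.8% and 30.6% of their exon bases are shared with other genes on the same strand.

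Every list gene given with log2 fold changes in what follows was called in each knockdown with TMM, except HIF1AN in kd1. Other regulators of HIF were taken from a list of 12 genes, all of them tested. In kd1 7 were higher and 4 lower, with a median log2 fold change of 0.74, and in kd2 9 were higher and 2 lower, with a median of 0.71, beside -0.03 for all genes. In kd1 library totals alone gave 7 higher and 5 lower with a median of 0.39, and the GC and length correction 8 higher and 2 lower with a median of 0.96. Of all genes, 38.2% were higher and 39.8% lower in kd1, and 36.5% and 36.9% in kd2. ELOB and ELOC, partners of VHL in its ubiquitin ligase, were among the higher genes. ELOB (elongin B) had 87.3 and 93.4 CPM in control cells, 450.7 and 504.9 in kd1, and 232.3 and 189.2 in kd2, a log2 fold change of 2.40 and 1.22. ELOC (elongin C) rose by 1.75 and 1.32 on the log2 scale, and SIAH2, a ligase that degrades the EGLN proteins, by 1.10 and 1.36.

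Among the lower regulators, EP300, a histone acetyltransferase and HIF coactivator, had 104.7 and 105.4 CPM in control cells, 47.1 and 45.6 in kd1, and 69.6 and 86.7 in kd2. Its log2 fold change was -1.18 and -0.43, and in kd2 the call was lost after the GC and length correction (-0.13, adjusted p = 0.0826). ARNT2, a paralogue of ARNT, was at -0.33 in kd1, not called after that correction (-0.08, adjusted p = 0.513), and at -1.87 in kd2. CREBBP, the paralogue of EP300, was at -0.25 in kd1, where the same correction turned it to 0.11, and at 0.51 in kd2. HIF1AN, the asparaginyl hydroxylase that blocks coactivator binding, is named after its values were seen and was at 0.08 in kd1 (adjusted p = 0.221) and 0.20 in kd2 (adjusted p = 0.00467), where library totals alone left it at 0.03 (adjusted p = 0.621). Between the knockdowns 4 regulators were higher in kd2 and 5 lower, with a median of 0.15. Of all genes, 34.9% were higher in kd2 than in kd1 and 33.8% lower, with a median of 0.02. The direction of the regulators' median depended on the scaling. After the GC and length correction 4 were higher and 7 lower, with a median of -0.22. With library totals alone 6 were higher and 4 lower, with a median of 0.33.

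**Figure D4:**
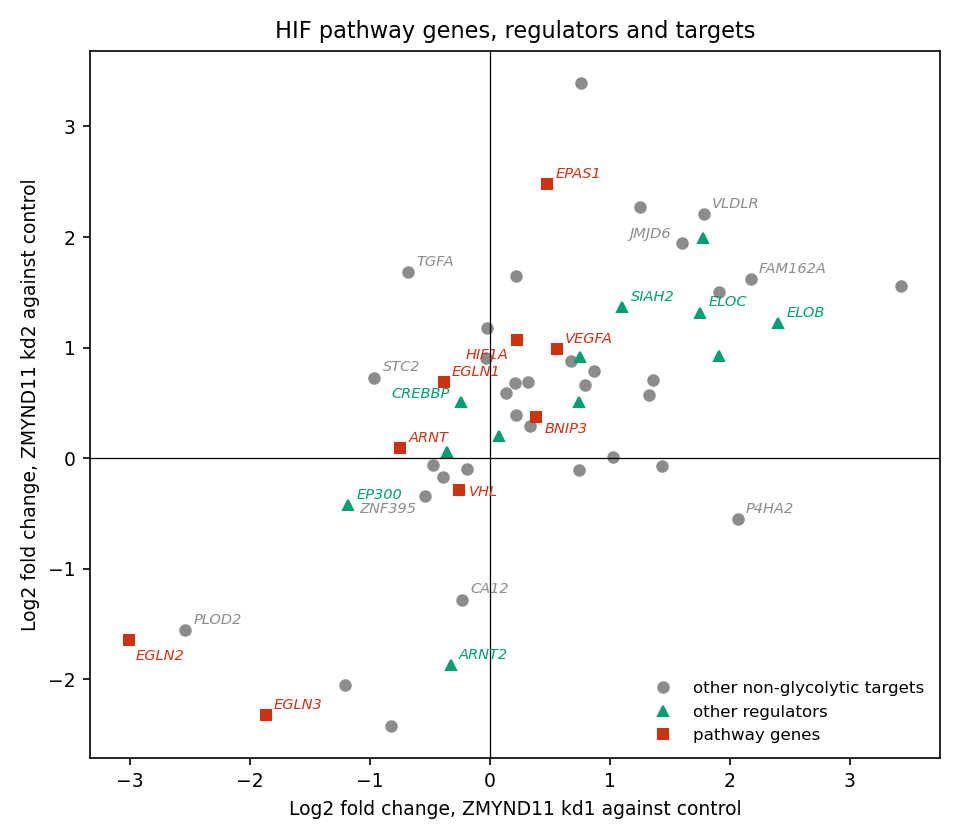
Log2 fold change in kd1 (x axis) and kd2 (y axis) of the tested HIF pathway genes (squares), other regulators (triangles) and other non-glycolytic targets (circles), with a point per gene. Both axes use the same control libraries, so points can line up through them. EGLN2 and EGLN3 lie at the lower left with PLOD2, and ELOB, ELOC and FAM162A at the upper right.

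Other HIF targets outside glycolysis were read from a list of 37 genes, of which 34 were tested, while EPO, FLT1 and PPP1R3C did not pass the filter. In kd1 19 were higher and 8 lower, with a median of 0.32, so that the calls in either direction, 27 of 34, were about as common as the 78.0% over all genes. Library totals alone gave 16 higher and 14 lower with a median of -0.03, above the median of all genes under that scaling, and the GC and length correction gave 20 and 9 with a median of 0.63. In kd2 21 were higher and 7 lower, with a median of 0.67, beside 73.4% of all genes called, 36.5% higher and 36.9% lower. FAM162A, a mitochondrial protein gene induced by hypoxia, had 90.7 and 102.3 CPM in control cells, 416.9 and 453.8 in kd1, and 313.3 and 278.5 in kd2, a log2 fold change of 2.17 and 1.62. VLDLR, the very-low-density lipoprotein receptor, rose by 1.78 and 2.21, and JMJD6, a Jumonji-domain hydroxylase, by 1.60 and 1.95.

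The targets that fell were led by PLOD2, a lysyl hydroxylase of collagen, at 88.5 and 83.6 CPM in control cells, 15.5 and 14.0 in kd1, and 29.1 and 29.5 in kd2. Its log2 fold change was -2.54 and -1.55. ZNF395, a transcription factor, was at -0.54 and -0.34, and CA12, a membrane carbonic anhydrase like CA9, at -0.24 and -1.28, where the GC and length correction turned the kd1 value to 0.05 (adjusted p = 0.595). Others went in opposite directions, with P4HA2, a collagen prolyl hydroxylase, at 2.06 and -0.55, the growth factor TGFA at -0.68 and 1.68, and the secreted glycoprotein STC2 at -0.97 and 0.73. STC2 had 89.2 and 91.4 CPM in control cells, 47.7 and 44.7 in kd1, and 146.2 and 153.1 in kd2. Between the knockdowns 17 targets were higher in kd2 and 12 lower, with a median of 0.19, which was 0.37 with library totals alone and 0.09 after the GC and length correction. Of all genes with TMM, 34.9% were higher in kd2 than in kd1 and 33.8% lower, with a median of 0.02. The list as a whole thus held members in every direction, as did the pathway genes.

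The glycolytic targets went both ways, with the transporter SLC2A1 and the kinase PDK1 lower and ALDOC higher in both knockdowns. Of 18 genes, all tested, 5 were higher and 8 lower in kd1, with a median of -0.13, and 7 were higher and 9 lower in kd2, with a median of -0.20. Beside these 13 and 16 calls among 18 genes, 78.0% of all genes were called in kd1 and 73.4% in kd2, and nothing particular to the list is read from them. Library totals alone gave 3 higher and 10 lower in kd1 with a median of -0.48, and 4 higher and 9 lower in kd2 with a median of -0.37. The GC and length correction kept the counts of calls and moved the kd1 median to -0.38. SLC2A1, the glucose transporter GLUT1, had 45.1 and 43.0 CPM in control cells, 11.3 and 10.9 in kd1, and 24.5 and 28.0 in kd2, a log2 fold change of -1.99 and -0.75. PDK1, the kinase that restrains pyruvate dehydrogenase, fell by 1.82 and 1.41 on the log2 scale, and PFKFB3, which makes the activator of phosphofructokinase, by 1.61 and 0.79. The aldolase gene ALDOC rose by 1.86 and 1.06. GPI, at 0.46 and 0.27, was called in neither knockdown with library totals alone (0.10 in each, adjusted p = 0.0789 and 0.0746), and ENO1 was at 0.58 and 0.15, the latter turning to -0.02 under that scaling.

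HK2, the hexokinase of many tumours, had 105.7 and 105.3 CPM in control cells, 49.2 and 49.0 in kd1, and 213.8 and 234.5 in kd2, so its log2 fold change was -1.10 in kd1 and 1.09 in kd2. ENO2 was at 0.43 in kd1, or 0.07 with library totals alone (adjusted p = 0.234), and at -0.43 in kd2. PGK1 was at -0.13 in kd1, turning to 0.11 after the GC and length correction (adjusted p = 0.0532), and at 0.56 in kd2. Between the knockdowns 6 glycolytic genes were higher in kd2 and 9 lower, with a median of -0.24, or 6 and 6 with a median of -0.06 with library totals alone. Of all genes with TMM, 34.9% were higher in kd2 than in kd1 and 33.8% lower, with a median of 0.02. ALDOA, named after its values were seen, was at 1.62 to 2.83 CPM in every library, with 42.8% of its exon bases shared with another gene on the same strand, so its counts are uncertain.

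**Figure D5:**
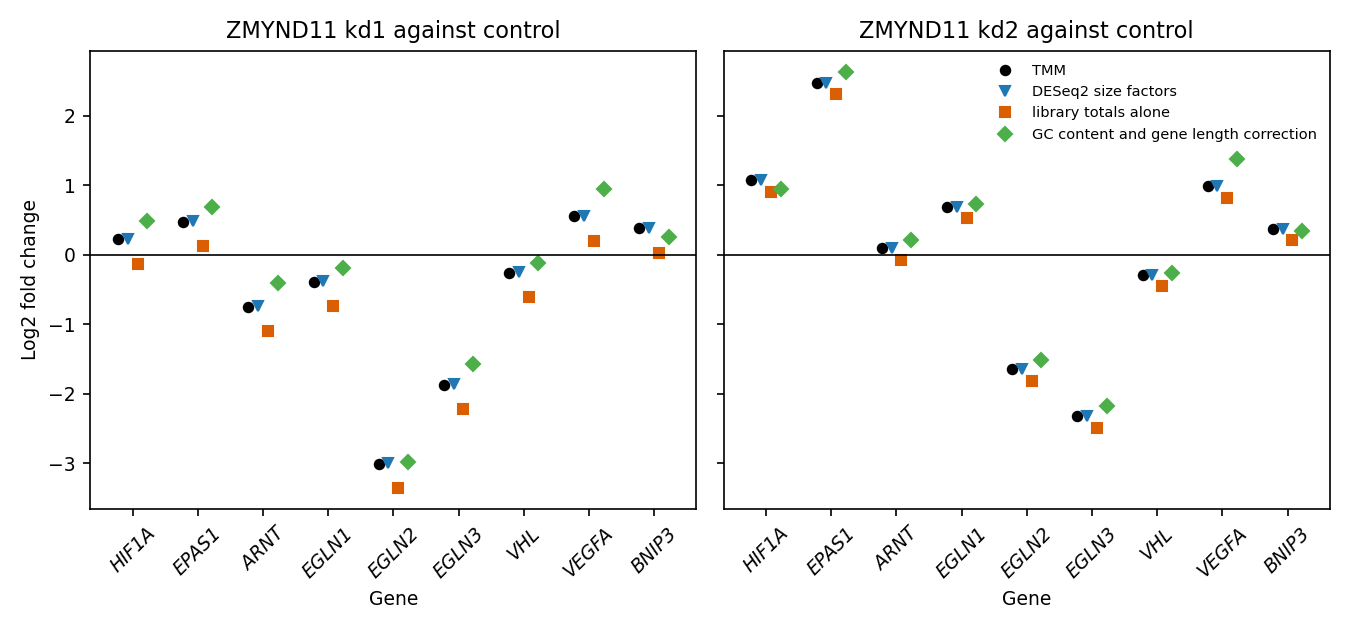
Log2 fold change of the 9 tested HIF pathway genes against control under 4 ways of scaling the libraries, kd1 left and kd2 right. Library totals alone lower every value in kd1, where HIF1A turns to -0.13 and BNIP3 falls to 0.03, while EGLN2 and EGLN3 are lower than all other members in kd1 under all 4.

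The scaling mattered most for the smaller changes in kd1. With library totals alone 1 member was higher and 6 lower there, in place of 4 and 5, and 5 and 3 in kd2 as before. Over all genes that scaling moved the median to -0.38 in kd1, -0.20 in kd2 and 0.21 between the knockdowns, and the share of calls that were higher from 49.0% to 35.3% in kd1 and from 50.8% to 61.1% between the knockdowns. After the GC and length correction 4 members were higher and 3 lower in kd1, and 6 and 3 in kd2. Against control, EGLN2, EGLN3 and VEGFA in both knockdowns, ARNT in kd1, and HIF1A, EPAS1, EGLN1, VHL and BNIP3 in kd2 kept their direction and their call under all 14 alternatives tried.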

How the data were processed

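The 6 RNA-seq libraries of 22Rv1 cells were grouped as labelled. The authors used FastQC 0.11.9 for quality checks, AdapterRemoval for trimming, STAR 2.7.9a for alignment to hg38 and, per the submitters' processing notes, HTSeq 0.13.5. The deposited values are raw counts per gene symbol, not normalized. The annotation, strand setting and treatment of multi-mapped reads are not given in the sources used here.

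R 4.3.3 with edgeR 4.0.16 was used for the tests (filterByExpr, TMM, quasi-likelihood test, robust off, 1 fit of all groups with 3 residual degrees of freedom). Benjamini-Hochberg adjustment ran over the 16510 genes tested. CPM use TMM library sizes. Standard errors are the size of the log2 fold change over the root of F. The 95% intervals use the fit's total degrees of freedom, 13.8 for the listed genes. These exceed the 3 residual ones because the fit borrows information on spread from other genes. Limits for counts of 0 cover counting error only. Of 35322 symbols, 32852 matched GENCODE 44, which gave positions and exon lengths. Promoters came from RefSeq (GRCh38.p14). The functions were tested on simulated data. Figures were drawn with matplotlib 3.10.9.

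The members and gene lists were chosen with earlier results of these data known. From each list the text names up to 3 genes called higher in both knockdowns, 3 lower in both and 3 in opposite directions, at a mean of at least 1 log2 CPM. Genes called one way were ranked by the smaller of their 2 changes, and those in opposite directions by the difference. HIF1AN and ALDOA were named outside this rule. Alternatives were DESeq2 size factors, library totals alone, a GC and length correction (lowess span 0.3), a Wald test in DESeq2 1.42.0, a fit with the filter off, a minimum of 10 counts per library, a replicate block, a fit of only the compared groups, and leaving out each library.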

Additional observations from a re-analysis of the deposited data

Results flagged for a closer look

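These results are listed because the 2 knockdowns differed from each other by a test of the difference itself, edgeR's comparison of ZMYND11 kd2 with ZMYND11 kd1. The log2 fold change of ZMYND11 kd2 over ZMYND11 kd1 was 2.003 for EPAS1, 1.37 for EGLN2, 1.08 for EGLN1, 0.84 for HIF1A, 0.84 for ARNT and 0.43 for VEGFA. The HIF1A value was 0.45 after the GC and length correction, and all 6 differences kept their direction and their call under the 14 alternatives. Over all genes 68.8% were called in this comparison, with 34.9% of all genes higher in ZMYND11 kd2 and 33.8% lower. In each of these 6 genes both ZMYND11 kd2 libraries lay above both ZMYND11 kd1 libraries. The genes were chosen by a test of the same libraries, so that separation adds no support. The residual ZMYND11 level was 26.9 CPM in ZMYND11 kd1 and 22.1 CPM in ZMYND11 kd2, and the part of that difference in these values was not tested.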

How the results depend on the processing

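All 14 alternatives were set with earlier results of these data known. The number of members called ranged from 7 to 9 in ZMYND11 kd1, 8 to 9 in ZMYND11 kd2 and 6 to 8 between the knockdowns. With the replicate block these were 9, 8 and 6. Over all genes the alternatives called 11508 to 13396, 10799 to 12286 and 10121 to 11571 genes in the same order, so steady counts are not particular to the members. Replicate numbers did not pair the libraries, since the differences between same-numbered libraries correlated at 0.0062, -0.026 and -0.044 across genes, and over all genes the block left 12545, 11688 and 10978 calls. With library totals alone these changed sign: HIF1A in ZMYND11 kd1 (-0.13), ARNT in ZMYND11 kd2 (-0.076), and VHL (0.16) and BNIP3 (0.18) between the knockdowns. BNIP3 between the knockdowns was also 0.083 after the GC and length correction and 0.0034 without a filter. With each library left out, ARNT in ZMYND11 kd2 ranged from -0.020 to 0.20, and between the knockdowns VHL ranged from -0.071 to 0.026 and BNIP3 from -0.066 to 0.058. The fits in which a left-out library leaves 1 sample in a group assume that it varies like the other groups. The causes of these changes were not tested. Low counts limit CA9 and, in ZMYND11 kd1, EGLN2.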
